A study of Mus musculus with 12 samples.

Results

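Most of the 37 genes described here encode parts of the protein folding machinery of the cytosol other than HSP70 itself. The 37 were chosen by symbol from the 55401 genes of the count table. They comprise 2 heat shock factors (Hsf1, Hsf2), 8 J proteins, 3 small heat shock proteins, 2 forms of HSP90, 7 HSP90 cochaperones, 4 HSP70 cochaperones and BAG proteins, 8 subunits of the chaperonin TRiC, the polyubiquitin gene Ubb and the pair Hspd1 and Hspe1. Hspd1 and Hspe1 encode the chaperonin of mitochondria, so the name cytosolic does not hold for them. All 37 were found in the table, and 36 passed the filter on low counts. Cryab did not pass it.

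The cells were mouse Th17 cells, CD4+ T cells named for the cytokine IL-17 they secrete, differentiated from naive T cells of wild-type lymph nodes. All 4 groups share that genotype and differentiation. None received no inhibitor, Kira8 received an inhibitor of the endoplasmic reticulum stress sensor IRE1alpha, Stattic received an inhibitor of the transcription factor STAT3, and Kira8+Stattic received both, each for 4 h. Each group had 3 libraries. Whether replicates were separate cultures or animals is not in the labels, and neither is a solvent for None, so the p-values speak only of the spread among these libraries, and that spread may be technical.

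Molecular chaperones bind proteins that are not yet folded or have lost their fold. J proteins bring such proteins to HSP70 and start its ATP cycle, BAG proteins and related factors reset that cycle, HSP90 finishes the folding of kinases and receptors, and TRiC folds actin and tubulin inside a closed chamber. When unfolded proteins accumulate in the cytosol, Hsf1 turns from an inactive, chaperone-bound form into a transcription factor and raises many of these genes together, the heat shock response. Polyubiquitin genes, which supply ubiquitin for protein breakdown, belong to the same response.

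Kira8 replicate 2 and Stattic replicate 2 stood apart from the other 10 libraries and are left out of every result below unless named. Total counts, in M (megacounts), were 51.7 to 85.9 M in the 10 libraries, 19.8 M in Kira8 replicate 2 and 9.28 M in Stattic replicate 2. Mitochondrial transcripts took 3.38 to 5.22% of counts in the 10, 61.5% in Kira8 replicate 2 and 10.7% in Stattic replicate 2, and Spearman's rho with the 10 was at most 0.39 and 0.40 for these libraries, against 0.87 to 0.94 among the 10. Levels are CPM (counts per megacount) scaled by TMM, and plain CPM in the 2 outlying libraries. Markers of other lymphocytes also moved with the inhibitors. The summed level of 10 CD8 T and NK cell markers was 1139 to 1972 CPM in None, 177 to 198 CPM in Kira8, 554 to 688 CPM in Stattic and 214 to 330.1 CPM in Kira8+Stattic, and Ncr1 was under 1 CPM throughout. Most of this sum in None was Gzmb, at 964, 1368 and 744 CPM. Gzmb was at 84.1 and 85.6 CPM in Kira8, 408 and 353 CPM in Stattic and 153, 132 and 92.8 CPM in Kira8+Stattic. The summed level of 8 B cell markers was 122 to 145 CPM in None, 37.4 to 46.8 CPM in Kira8, 14.5 to 25.1 CPM in Stattic and 16.7 to 34.9 CPM in Kira8+Stattic, and Cr2 was under 1 CPM throughout. The 10 Th17 markers, all above 1 CPM in some library, summed to 1611 to 3712 CPM in None, 1413 to 1537 CPM in Kira8, 1119 to 1130.4 CPM in Stattic and 1136 to 1173 CPM in Kira8+Stattic. For the marker counts that follow, 9.70% of all genes tested were called higher with Kira8 and 9.59% lower. With Stattic these shares were 20.1% and 18.9%. With Kira8 7 of 9 tested CD8 T and NK cell markers and 5 of 8 B cell markers were called lower. With Stattic 4 of 9 and 7 of 8 were lower, and 1 CD8 T and NK cell marker was called higher. Of 10 Th17 markers 3 were lower and 1 higher with Kira8, and 6 lower and 1 higher with Stattic. The 7 pan T cell markers summed to 2328 to 2586 CPM in None, 1911 to 2091 CPM in Kira8, 2416 to 2855 CPM in Stattic and 2338 to 2502 CPM in Kira8+Stattic, with 2 called lower with Kira8, and 2 higher and 2 lower with Stattic. Myeloid markers summed to 28.4 to 107 CPM over the 10 libraries, and 2 of 8 were called higher with Stattic. The part of these shifts in the results below was not tested, and in bulk RNA fewer cells of a type and less RNA per cell cannot be told apart.

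More of these genes were called with Stattic than with Kira8, and the same held for all genes tested (8281 against 4097). The largest called changes of the members were rises with Stattic. A gene was called higher or lower when its p from the quasi-likelihood test of edgeR, adjusted by Benjamini-Hochberg over the 21239 genes tested, was under 0.05. Against None, 16 of 36 members were higher with Stattic, 5 were lower and 15 were not called, and of all genes tested 20.1% were called higher and 18.9% lower. The share called higher was thus above that of all genes and the share called lower was close to it. The median log2 change of the members was 0.16, and that of all genes tested 0.08. All members together took 1.17 to 1.33% of counts in None and 1.79 to 2.18% in Stattic, and these ranges did not overlap.

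With Kira8 alone more members were called lower than higher. Against None, 5 members were higher, 10 lower and 21 not called, with 9.70% of all genes called higher and 9.59% lower. The median log2 change was -0.29 over the members and 0.00 over all genes tested. The split depended on the libraries used. Without Kira8 replicate 1 or replicate 3, which leaves a single Kira8 library, the lower members no longer outnumbered the higher. Fewer members and fewer of all genes were then called. In a fit of these groups alone the split was 7 higher and 7 lower, with 1719 of 18364 genes called higher and 1988 lower. The members took 1.01 to 1.23% of counts in Kira8, a range that overlapped that of None.

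With both inhibitors against None, 16 members were higher and 5 lower, with 20.8% of all genes called higher and 20.0% lower, and the median log2 change was 0.34 for the members and 0.09 for all genes. Both inhibitors against Kira8 gave 19 members higher and 3 lower, with 14.7% and 16.0% of all genes, and a median of 0.63 for the members against 0.12 for all genes. The comparisons with None share its 3 libraries. Scaling by library size alone moved the median change of all genes by more than 0.1 on the log2 scale, from 0.08 to -0.08 for Stattic against None. It gave 14 members higher and 8 lower for Stattic, 16 and 9 for both inhibitors against None, and 16 and 5 for both inhibitors against Kira8. Of the 21239 genes tested, this scaling called 3514 higher and 4755 lower for Stattic. It called 3686 and 5033 of them for both inhibitors against None, and 2491 and 4028 for both against Kira8.

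The calls depended on the 2 outlying libraries and on how they were treated. With all 12 libraries in the same edgeR test, 0 members were called for Kira8 against None (4 at an unadjusted p under 0.05), 1 for Stattic against None (7 unadjusted), 1 for both against None (9 unadjusted) and 0 for both against Kira8 (10 unadjusted). The single member called was Dnajb4. That test covered 35 members and 20993 genes. Of these genes 2689, 4110, 2420 and 2536 had an unadjusted p under 0.05 in the 4 comparisons, in the order given. With all 12 libraries in limma voom with quality weights per library, 13, 19, 21 and 26 members were called in those comparisons. Of the 20993 genes tested with 12 libraries, edgeR called 0 (0%), 65 (0.310%), 57 (0.272%) and 0 (0%) in these comparisons, and voom with quality weights called 4672 (22.3%), 7778 (37.1%), 9959 (47.4%) and 9279 (44.2%). Within the 10 libraries, 16 of the 21 Stattic calls and all 21 calls of both inhibitors against None held when any single library was left out, as did 3 of the 15 Kira8 calls. Leaving out Kira8 replicate 1 or 3 kept a single library in that group. Calls for Kira8 against None were then fewer, among the members and among all genes alike.

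**Figure D1:**
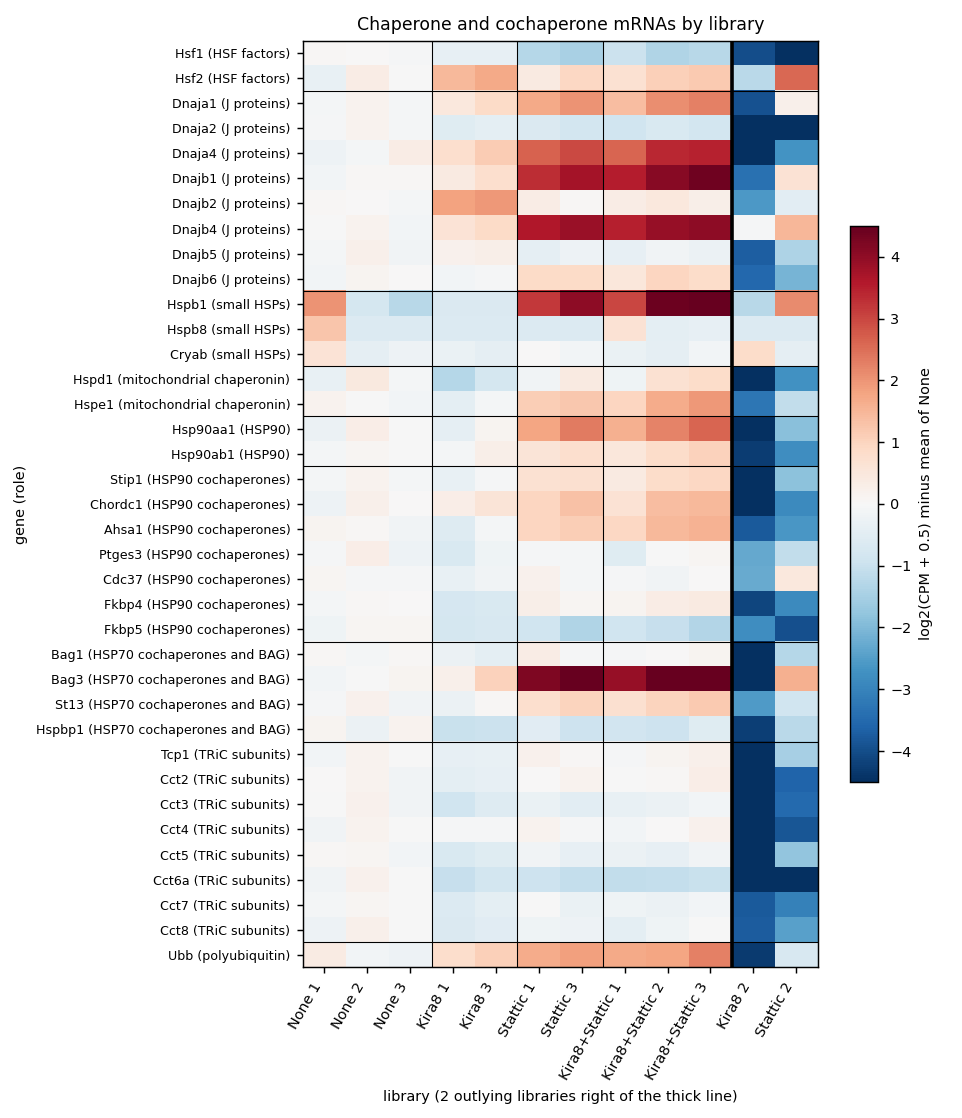
Each row is a member with its role and each column a library, and colour gives log2(CPM + 0.5) minus the mean of None, limited at 4.5 in either direction. Bag3, Dnajb1, Dnajb4 and Hspb1 are the darkest red rows in the 5 libraries with Stattic left of the thick line, and the 2 outlying libraries right of it are blue for most members.

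**Figure D2:**
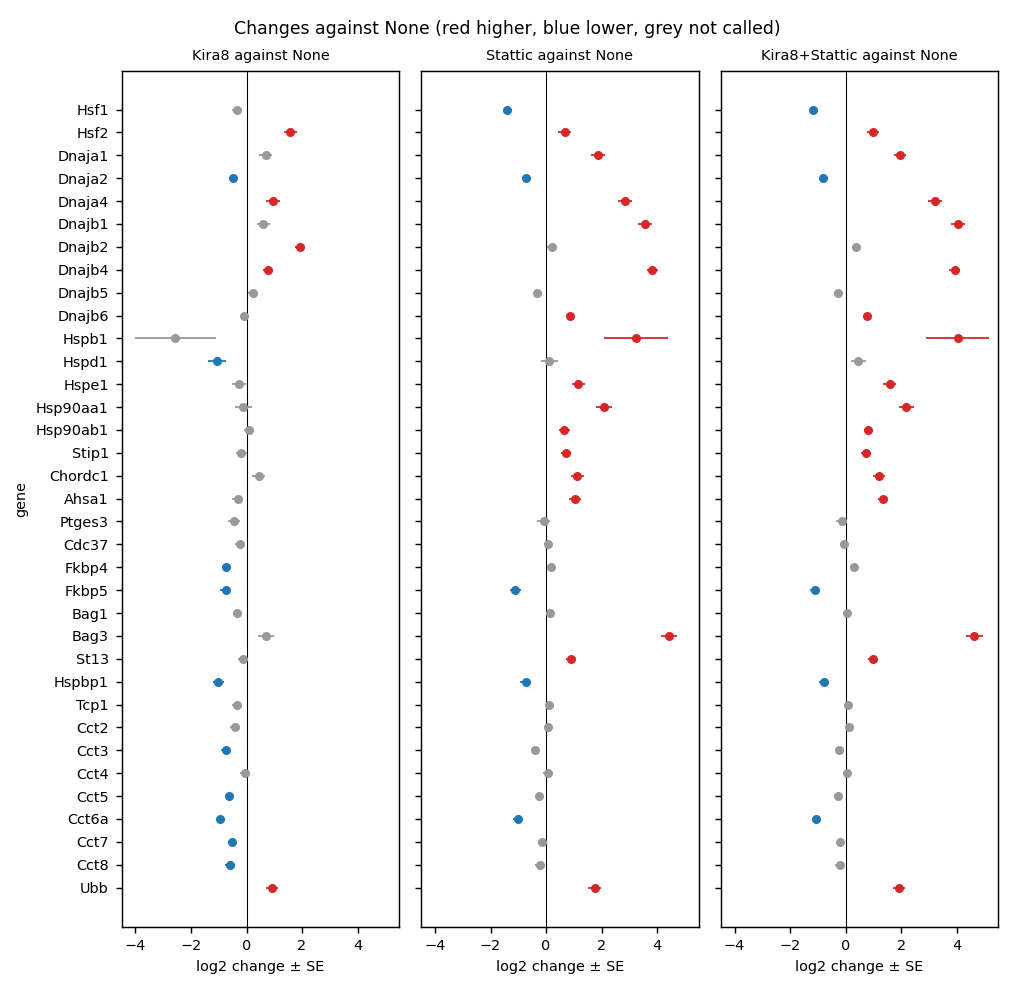
Points give the log2 change against None and bars its standard error, for Kira8, Stattic and Kira8+Stattic, with red for members called higher, blue for lower and grey for not called (Hspb8 and Cryab are left out). In the middle panel 16 members are red, from Hsp90ab1 at 0.66 to Bag3 at 4.43, and in the left panel 10 are blue, 5 of them TRiC subunits.

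Promoter sequences are shown here for the members with the most heat shock element letters and for some leading responders. The heat shock factors bind such elements. A heat shock element alternates GAA and TTC units with 2 bases between them. RefSeq windows of 300 bases (250 before to 50 after a start site, GRCm38.p6, the same coordinates as mm10) were found for 31 of the 37 members. The table held no window for Hsf1, Hsp90aa1, Hsp90ab1, Cct4, St13 and Cryab. The 3-unit letters GAANNTTCNNGAA, read on both strands (TTCNNGAANNTTC on the other), were in 198 of 32851 windows of all genes (0.603%) and in 5 of 44 windows of members, those of Hspd1, Hspe1, Dnajb6 and Chordc1. Hspd1 and Hspe1 start in opposite directions from one short region, so their windows overlap, and the 2 Dnajb6 windows overlap and hold the same match. In the sequences below, capitals mark heat shock element letters and the plus strand is shown unless stated. The Hspe1 stretch is chr1:55088053-55088082, bases -95 to -66 from its start. The Chordc1 stretch is chr9:18292261-18292290, bases -6 to 24. The Dnajb6 stretch is chr5:29735844-29735873, bases -54 to -25.
Hspe1: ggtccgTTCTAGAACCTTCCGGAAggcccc
Chordc1: cgGAACGTTCGGGAAAATTCCTGAAgcagt
Dnajb6: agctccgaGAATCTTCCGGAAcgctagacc

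Shorter, 2-unit letters are much more common. Either GAANNTTC or TTCNNGAA, each its own reverse complement and each contained in the 3-unit form, was in 15.1% of the windows of all genes and in 36.4% of the 44 windows of members. Counted by gene, they were in 17% of 27025 genes with a window and in 48.4% of the 31 members. Of the 13 members with a window that were higher with Stattic, 8 held such letters, as did 1 of 4 lower members and 6 of 14 members not called. These are matches of letters in a fixed window, not measured binding sites. Dnaja4 had 2 separate matches (chr9:54699458-54699487 and chr9:54699496-54699525) and Dnajb4 had 1 (chr3:152193841-152193870, minus strand). They lie before RefSeq starts that are inside the longer genes of the GENCODE annotation. The other window of each of these genes held no such letters. Bag3 had 1 match, beginning at base 43 counted from its start, and it is not printed.
Dnaja4, upstream: ggaacctccgcGAACGTTCtgggcctatgt
Dnaja4, downstream: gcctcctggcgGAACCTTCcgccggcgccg
Dnajb4: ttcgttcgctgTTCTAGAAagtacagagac

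The 250 bases before the start of Hspb1 (chr5:135887669-135887918) held 2 matches. The 203 bases printed for Dnajb1 (chr8:83607972-83608174), one of the strongest responders, held none, and neither did its whole window.
Hspb1: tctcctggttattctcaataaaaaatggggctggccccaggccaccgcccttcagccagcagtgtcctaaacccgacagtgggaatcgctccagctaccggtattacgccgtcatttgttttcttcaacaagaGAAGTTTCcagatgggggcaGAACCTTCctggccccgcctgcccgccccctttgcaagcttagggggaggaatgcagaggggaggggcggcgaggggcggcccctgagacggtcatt
Dnajb1: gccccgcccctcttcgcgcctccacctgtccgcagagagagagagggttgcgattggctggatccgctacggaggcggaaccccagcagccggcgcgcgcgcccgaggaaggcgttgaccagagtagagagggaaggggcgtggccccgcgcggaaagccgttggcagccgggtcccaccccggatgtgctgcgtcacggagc

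The heat shock factors themselves moved in opposite directions with Stattic. Hsf1 (ENSMUSG00000022556, mm10 chromosome 15, 76477422 to 76501913), the main activator of the heat shock response, was at 65.4, 63.6 and 60.2 CPM in None, 49.2 and 49.2 CPM in Kira8, 25.6 and 22.4 CPM in Stattic and 32.1, 24.6 and 26.3 CPM in Kira8+Stattic. All 5 libraries with Stattic were below all 5 without it, and the Kira8 libraries lay between. Hsf1 mRNA was lower with Stattic by edgeR's quasi-likelihood test (log2 change -1.40 ± 0.16 SE, adjusted p = 5.69e-05) and lower with both inhibitors than with Kira8 (-0.83 ± 0.16, adjusted p = 0.00190), while the Kira8 difference from None was not called (-0.36 ± 0.16, adjusted p = 0.140).

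Hsf2 (ENSMUSG00000019878, chromosome 10, 57486385 to 57513135), a related factor that can pair with Hsf1, was highest with Kira8 alone. Its levels were 24.8, 39.7 and 30.7 CPM in None, 86.8 and 103 CPM in Kira8, 41.7 and 59.4 CPM in Stattic and 50.4, 65.7 and 71.5 CPM in Kira8+Stattic. Neither Kira8 library overlapped any other group. It was called higher with Kira8 (1.58 ± 0.23, adjusted p = 0.000687), with Stattic (0.67 ± 0.23, adjusted p = 0.0346) and with both (0.98 ± 0.21, adjusted p = 0.00256). The Stattic call ended without None replicate 1 (adjusted p = 0.0813), None replicate 3 (0.0798), Kira8 replicate 3 (0.0502) or Stattic replicate 3 (0.334), and the left-out library Stattic replicate 2 was at 189 CPM. These are messenger levels and carry no measure of the activity of either factor.

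Among the members, the J proteins held the largest called changes against None after Bag3. With Stattic 5 of these 8 were higher, 1 lower and 2 not called. The 13 other J proteins, which are not members, went the other way, with 0 called higher and 7 lower. Among all genes 20.1% were called higher with Stattic and 18.9% lower. Dnajb4 (ENSMUSG00000028035, chromosome 3, 152178511 to 152210302), a class B J protein close to Dnajb1, was at 6.61, 7.56 and 6.17 CPM in None and 10.5 and 12.7 CPM in Kira8. It reached 86.9 and 106 CPM in Stattic and 81.1, 109 and 119 CPM in Kira8+Stattic. The groups with and without Stattic were far apart, and Kira8 was above None without overlap. Dnajb4 was 14.2-fold higher with Stattic (3.83 ± 0.20, adjusted p = 4.63e-07), 15.2-fold with both (3.92 ± 0.19) and 1.71-fold with Kira8 (0.77 ± 0.19, adjusted p = 0.0146). The Kira8 call ended without Kira8 replicate 3 (adjusted p = 0.166). With all 12 libraries the Stattic change was 3.40 ± 0.60 (adjusted p = 0.0466) and that of both inhibitors 3.91 ± 0.62 (adjusted p = 0.0411), and Stattic replicate 2 was at 19.9 CPM, above every None and Kira8 library.

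Dnajb1 (ENSMUSG00000005483, chromosome 8, 83608193 to 83612653), the classical HSP40 that serves HSP70 and is itself a heat shock gene, started from a higher level. It was at 69.1, 78.4 and 78.7 CPM in None and 101 and 128 CPM in Kira8, against 766 and 1014 CPM in Stattic and 867, 1282 and 1587 CPM in Kira8+Stattic. Every library with Stattic was above every library without it. The change was 11.8-fold with Stattic (3.56 ± 0.24, adjusted p = 1.82e-06) and 16.5-fold with both (4.05 ± 0.24), and with Kira8 alone it missed the threshold (0.60 ± 0.23, adjusted p = 0.0962). With all 12 libraries the Stattic change of Dnajb1 was 3.07 ± 0.73 and was not called (adjusted p = 0.112).

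Dnaja4 (ENSMUSG00000032285, chromosome 9, 54698873 to 54716315), a class A J protein, rose in both single treatments. It was at 15.2, 16.8 and 22.7 CPM in None, 30.7 and 39.8 CPM in Kira8, 117 and 144 CPM in Stattic and 114, 195 and 204 CPM in Kira8+Stattic. No library of one of the first 3 groups overlapped another, while Stattic and Kira8+Stattic overlapped. The rise was 7.18-fold with Stattic (2.84 ± 0.26, adjusted p = 9.39e-06) and 1.93-fold with Kira8 (0.95 ± 0.25, adjusted p = 0.0206), the latter call ending without None replicate 1 (0.0514), None replicate 2 (0.0574) or Kira8 replicate 3 (0.199). Exons of Dnaja4 overlap Wdr61 on the other strand, and the strand of counting is not given in the sources used here.

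Dnaja1 and Dnajb6 completed the 5 that rose with Stattic. Dnaja1, an abundant class A protein, changed by 1.87 ± 0.24 (adjusted p = 9.47e-05), from 264 to 308 CPM in None to 910.5 and 1124 CPM in Stattic. Dnajb6, known for holding back aggregation of polyglutamine proteins, changed by 0.86 ± 0.16 (adjusted p = 0.00133). Dnaja2, the other abundant class A protein, was lower with Stattic (-0.73 ± 0.15, adjusted p = 0.00249) and with Kira8 (-0.49 ± 0.15, adjusted p = 0.0382), and the Kira8 call ended without any of 5 single libraries. Dnajb5 was not called against None in any group, with levels of 26.6 to 42.7 CPM over the 10 libraries, and was lower with both inhibitors than with Kira8 (-0.49 ± 0.16, adjusted p = 0.0383), a call that ended without any of 5 libraries. Dnaja1 and Dnajb6 also overlap other genes on the opposite strand (Smu1 and Gm6297, and Gm5129).

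Dnajb2 (ENSMUSG00000026203, chromosome 1, 75236406 to 75245692), a J protein that also binds ubiquitin chains, had its highest level with Kira8 alone. It was at 14.0, 13.6 and 12.6 CPM in None, 47.9 and 52.9 CPM in Kira8, 17.2 and 14.0 CPM in Stattic and 16.9, 19.0 and 16.2 CPM in Kira8+Stattic. The 2 Kira8 libraries stood alone, and the other 8 lay within 12.6 to 19.0 CPM. The rise with Kira8 was 3.76-fold (1.91 ± 0.16, adjusted p = 4.05e-05), the Stattic difference was not called (0.22 ± 0.17, adjusted p = 0.321), and with both inhibitors the level was 2.90-fold lower than with Kira8 (-1.54 ± 0.16, adjusted p = 5.99e-05). The left-out library Kira8 replicate 2 was at 1.82 CPM. The calls against None and against Kira8 held without any single library of the 10.

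**Figure D3:**
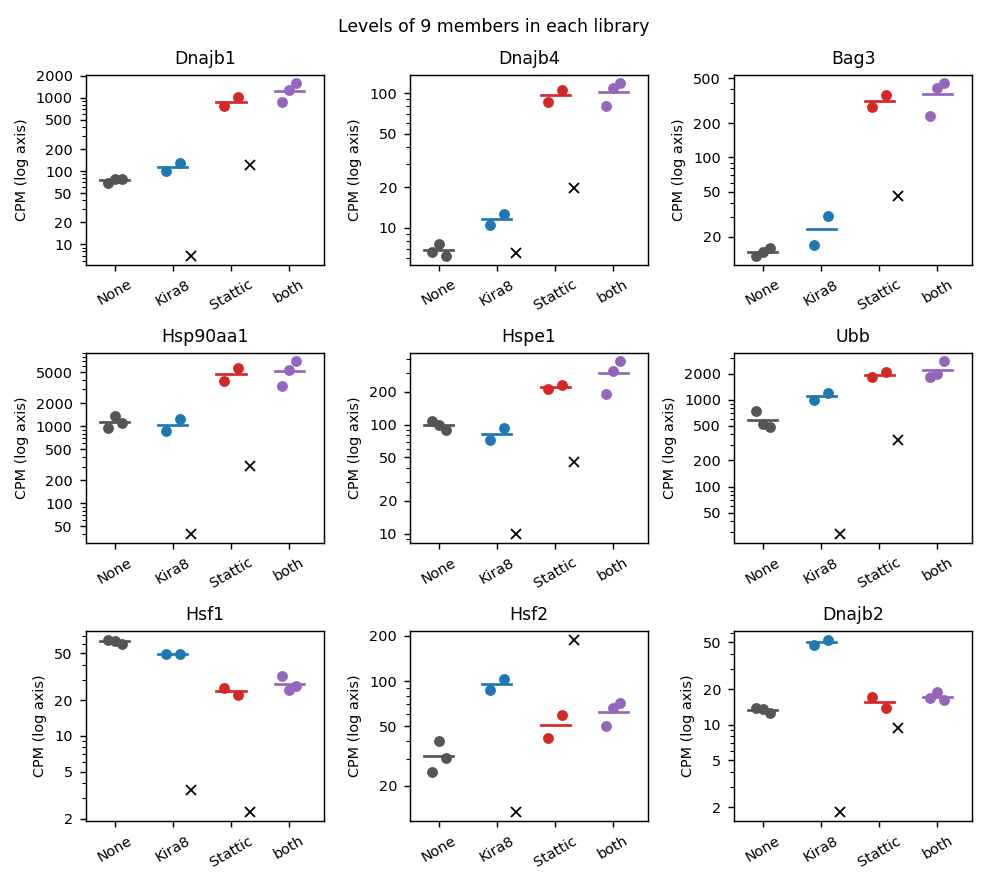
Each point is a library, with level in CPM on a log axis and a bar at the group mean, for None, Kira8, Stattic and Kira8+Stattic (both), and crosses mark the 2 outlying libraries (Bag3 was at 0 in Kira8 replicate 2 and has no cross there). Among the points, the upper 6 genes are high in the groups with Stattic, Hsf1 is low there, and Hsf2 and Dnajb2 are highest in Kira8. The crosses differ: Hsf2 is at 189 CPM in Stattic replicate 2, above both Kira8 points, and Dnajb2 is at 1.82 CPM in Kira8 replicate 2.

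Small heat shock proteins hold unfolded proteins without using ATP. Among the 3 that are members, only Hspb1 was present at more than trace levels. Hspb1 (ENSMUSG00000004951, chromosome 5, 135887919 to 135889563), also called HSP25 in the mouse, was at 4.37, 0.185 and 0 CPM in None, 0.260 and 0.250 CPM in Kira8, 10.2 and 19.0 CPM in Stattic and 9.13, 24.8 and 41.4 CPM in Kira8+Stattic. In None, replicate 1 carried 304 of the counts and the others 12 and 0. All libraries with Stattic were above all without it. The test called it higher with Stattic (3.25 ± 1.15, adjusted p = 0.0415) and with both inhibitors (4.04 ± 1.13, adjusted p = 0.0128). The size of the change rested on None replicate 1: without it the Stattic value was 7.28. The Stattic call ended without any of 7 of the 10 libraries, including either Stattic library (adjusted p = 0.0597 and 0.171), and DESeq2 did not make it (adjusted p = 0.135).

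Hspb8, a partner of Bag3, had 93 counts in None replicate 1, 37, 4 and 8 counts in Kira8+Stattic and 0 in the other 6 libraries of the 10. A count of 0 allows up to 3 counts, which is 0.0349 to 0.0581 CPM over the 10 libraries. Cryab, a small heat shock protein of lens and muscle, had at most 35 counts in any library of the 10, again in None replicate 1. The fitted changes of Hspb8 are not given because whole groups were at 0, and the member medians above were the same with Hspb8 set to the bound of 3 counts.

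Both forms of HSP90 rose with Stattic. Hsp90aa1 (ENSMUSG00000021270, chromosome 12, 110690605 to 110702728), the inducible form, was at 945, 1372 and 1102 CPM in None, 855 and 1237 CPM in Kira8, 3890.1 and 5693 CPM in Stattic and 3377, 5317 and 6955 CPM in Kira8+Stattic. Hsp90ab1 (ENSMUSG00000023944, chromosome 17, 45567775 to 45573271), the constitutive form, was at 2721, 3114 and 2899 CPM in None, 2733 and 3457 CPM in Kira8, 4337 and 4870.4 CPM in Stattic and 4123, 5214 and 6033 CPM in Kira8+Stattic. For both genes the libraries with Stattic were above those without it, and None and Kira8 overlapped.

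The change with Stattic was 4.20-fold for Hsp90aa1 (2.07 ± 0.29, adjusted p = 0.000198) and 1.58-fold for Hsp90ab1 (0.66 ± 0.19, adjusted p = 0.0165). The Hsp90ab1 call ended without Stattic replicate 3 (adjusted p = 0.118). Neither was called with Kira8, at -0.12 ± 0.30 and 0.09 ± 0.19. Per kilobase of exon, the level of Hsp90aa1 divided by that of Hsp90ab1 was 0.265 to 0.336 in None, 0.239 to 0.273 in Kira8, 0.684 to 0.892 in Stattic and 0.625 to 0.880 in Kira8+Stattic. On this scale, which takes the union of all annotated exons as the length, the ratio was under 1 in every library. In CPM, without length, Hsp90aa1 exceeded Hsp90ab1 in Stattic replicate 3 and Kira8+Stattic replicates 2 and 3. Neither the ratio nor the difference between the changes of the 2 genes was tested.

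Of the 7 HSP90 cochaperones, 3 rose with Stattic, 1 fell and 3 were not called, and with Kira8 2 fell and none was called higher. Among all genes 20.1% were called higher and 18.9% lower with Stattic, and 9.70% and 9.59% with Kira8. Ahsa1 (ENSMUSG00000021037, chromosome 12, 87266479 to 87273998), which activates the ATPase of HSP90, was at 146, 141 and 121 CPM in None, 90.9 and 127 CPM in Kira8, 264 and 294 CPM in Stattic and 258, 370.5 and 402 CPM in Kira8+Stattic. It was 2.05-fold higher with Stattic (1.04 ± 0.21, adjusted p = 0.00195), and the libraries with Stattic did not overlap those without it. Ahsa1 overlaps the gene model Gm47293 on the same strand.

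Chordc1 (ENSMUSG00000001774, chromosome 9, 18292125 to 18317442), an HSP90-binding protein whose 3-unit letters are printed above, was at 137, 191 and 162 CPM in None, 198 and 245 CPM in Kira8, 315 and 401 CPM in Stattic and 257, 425 and 444 CPM in Kira8+Stattic. With Stattic the rise was 2.19-fold (1.13 ± 0.24, adjusted p = 0.00259), while the Kira8 difference was not called (0.44 ± 0.24, adjusted p = 0.228). Stip1, which joins HSP70 to HSP90, rose by 0.70 ± 0.18 with Stattic (adjusted p = 0.0101), a call that ended without Stattic replicate 3 (0.0550).

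Fkbp5 (ENSMUSG00000024222, chromosome 17, 28399094 to 28517527), an immunophilin of steroid receptor complexes, went down instead. It was at 72.3, 86.6 and 87.5 CPM in None, 47.4 and 50.0 CPM in Kira8, 44.1 and 32.1 CPM in Stattic and 43.7, 39.3 and 32.2 CPM in Kira8+Stattic. All libraries with an inhibitor were below all None libraries. The change was -1.11 ± 0.19 with Stattic (adjusted p = 0.000739) and -0.75 ± 0.19 with Kira8 (adjusted p = 0.0148), the Kira8 call ending without Kira8 replicate 1 (0.129) or 3 (0.103).

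Its relative Fkbp4 (ENSMUSG00000030357, chromosome 6, 128429735 to 128438677) was at 195, 211 and 209 CPM in None, 119.8 and 127 CPM in Kira8, 245 and 216 CPM in Stattic and 225, 259 and 273 CPM in Kira8+Stattic. Only the Kira8 libraries were low. Fkbp4 was lower with Kira8 than in None (-0.73 ± 0.15, adjusted p = 0.00528), a call that ended without Kira8 replicate 1 (0.0821) or 3 (0.0604). It was not called with Stattic (0.17 ± 0.15, adjusted p = 0.382) and was higher with both inhibitors than with Kira8 (1.04 ± 0.15, adjusted p = 0.000427). Ptges3 (p23, a late HSP90 cochaperone) and Cdc37 (which brings kinases to HSP90) were not called in any comparison, the interaction included, with log2 values of -0.45 to 0.40 and -0.25 to 0.18.

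The regulators of the HSP70 cycle included the member with the largest called change against None. Bag3 (ENSMUSG00000030847, chromosome 7, 128523616 to 128546981), a nucleotide exchange factor that links HSP70 to selective autophagy, was at 13.6, 14.6 and 15.9 CPM in None, 17.1 and 30.3 CPM in Kira8, 281 and 353 CPM in Stattic and 229.6, 409.7 and 451 CPM in Kira8+Stattic. The rise was 21.5-fold with Stattic (4.43 ± 0.30, adjusted p = 1.82e-06) and 24.7-fold with both (4.63 ± 0.30, adjusted p = 7.76e-07). With Kira8 it was 1.61-fold and not called (0.69 ± 0.29, adjusted p = 0.116), although both Kira8 libraries were above None. With all 12 libraries the Stattic change of Bag3 was 3.95 ± 1.21 and not called (adjusted p = 0.159), with Stattic replicate 2 at 45.5 CPM and Kira8 replicate 2 at 0.

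St13 (ENSMUSG00000022403, chromosome 15, 81363669 to 81400077), which steadies the ADP-bound form of HSP70, was at 247, 289.7 and 229 CPM in None, 213 and 261 CPM in Kira8, 431 and 506 CPM in Stattic and 416, 512 and 569.7 CPM in Kira8+Stattic. It rose 1.84-fold with Stattic (0.88 ± 0.18, adjusted p = 0.00249). Hspbp1 (ENSMUSG00000063802, chromosome 7, 4660521 to 4685068), another exchange factor for HSP70, was at 49.8, 38.1 and 51.3 CPM in None, 22.6 and 23.4 CPM in Kira8, 32.5 and 23.6 CPM in Stattic and 25.2, 23.8 and 31.4 CPM in Kira8+Stattic. All libraries with an inhibitor were below None. It fell with Kira8 (-1.01 ± 0.20, adjusted p = 0.00476; 0.0583 and 0.0519 without either Kira8 library) and with Stattic (-0.73 ± 0.20, adjusted p = 0.0132; 0.147 without Stattic replicate 3). Bag1, the founding BAG protein, was not called in any comparison.

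The mitochondrial chaperonin pair, HSP60 (Hspd1) and its lid HSP10 (Hspe1), share a promoter region but did not have the same calls. Hspe1 (ENSMUSG00000073676, chromosome 1, 55088132 to 55091307) was at 109, 98.3 and 89.5 CPM in None, 71.9 and 93.4 CPM in Kira8, 212 and 230.3 CPM in Stattic and 192, 312 and 381 CPM in Kira8+Stattic. Hspd1 (ENSMUSG00000025980, chromosome 1, 55077835 to 55088243) was at 602, 1027 and 723 CPM in None, 315 and 439 CPM in Kira8, 691 and 1009 CPM in Stattic and 661, 1221 and 1347 CPM in Kira8+Stattic. Hspe1 was above all other libraries in every library with Stattic, while for Hspd1 None and Stattic overlapped and the 2 Kira8 libraries were the lowest.

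With Stattic, Hspe1 rose 2.24-fold (1.16 ± 0.24, adjusted p = 0.00242) and Hspd1 was not called (0.12 ± 0.31, adjusted p = 0.795). Hspd1 was lower with Kira8 (-1.06 ± 0.32, adjusted p = 0.0390), a call that ended without any of 5 libraries (adjusted p up to 0.274). With both inhibitors against Kira8 the pair rose together, by 1.84 ± 0.26 for Hspe1 (adjusted p = 0.000338) and 1.51 ± 0.33 for Hspd1 (adjusted p = 0.00477; 0.0652 without Kira8 replicate 1). Per kilobase of exon, the ratio of Hspe1 to Hspd1 was 0.172 to 0.324 in None, 0.381 to 0.409 in Kira8, 0.409 to 0.550 in Stattic and 0.458 to 0.520 in Kira8+Stattic. It was thus higher in every library with an inhibitor than in None, whichever of the genes had moved, and it was not tested. The exons of the pair overlap at their starts on opposite strands, where counts cannot be told apart without strand.

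TRiC subunits had more calls with Kira8 than with Stattic. With Kira8, 5 of 8 were lower, none was higher and 3 were not called. The share of all genes called lower was 9.59% with Kira8 and 18.9% with Stattic. With both inhibitors against Kira8, 14.7% of all genes were called higher. The members lower were Cct3, Cct5, Cct6a, Cct7 and Cct8, by -0.53 to -0.94, and those not called were Tcp1, Cct2 and Cct4, at -0.35, -0.42 and -0.06. Of the 5 calls, that of Cct6a held without any single library of the 10. With Stattic 1 of 8 was lower and 7 were not called, and with both inhibitors against Kira8 Cct2 and Cct3 were higher (0.53 ± 0.17 and 0.50 ± 0.17). The Cct2 call ended without any of 4 libraries (adjusted p up to 0.195) and the Cct3 call without any of 6 (up to 0.348). The levels of the 8 subunits summed to 3365 to 3991 CPM in None, 2421 to 2619 CPM in Kira8, 3081 to 3308 CPM in Stattic and 2966 to 3512 CPM in Kira8+Stattic.

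Cct6a (ENSMUSG00000029447, chromosome 5, 129786998 to 129846371) was the subunit called lower with Stattic. It was at 379.5, 487 and 419 CPM in None, 208 and 238 CPM in Kira8, 221 and 203 CPM in Stattic and 199.6, 203 and 212 CPM in Kira8+Stattic. All 7 libraries with an inhibitor lay within 199.6 to 238 CPM, below every None library. The change was -0.94 ± 0.16 with Kira8 (adjusted p = 0.00175), -1.02 ± 0.16 with Stattic (adjusted p = 0.000410) and -1.07 ± 0.14 with both (adjusted p = 9.2e-05). The annotated gene overlaps Psph on the other strand and Snora15 on the same strand, so part of its counts may be theirs.

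Cct3 (ENSMUSG00000001416, chromosome 3, 88297116 to 88321767) was at 387, 447 and 354 CPM in None, 209 and 262 CPM in Kira8, 319 and 287 CPM in Stattic and 313, 329 and 359 CPM in Kira8+Stattic. Cct5 (ENSMUSG00000022234, chromosome 15, 31590800 to 31601804) was at 469.9, 479 and 414 CPM in None, 281 and 308 CPM in Kira8, 408 and 355 CPM in Stattic and 382, 351 and 403 CPM in Kira8+Stattic. In both genes Kira8 was the lowest group, with no overlap with any other. Their Kira8 changes were -0.75 ± 0.17 (adjusted p = 0.00896; 0.150 without Kira8 replicate 1) and -0.62 ± 0.15 (adjusted p = 0.0140; 0.162 and 0.0934 without either Kira8 library), and their Stattic changes were not called (-0.39 ± 0.17 and -0.25 ± 0.15).

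**Figure D4:**
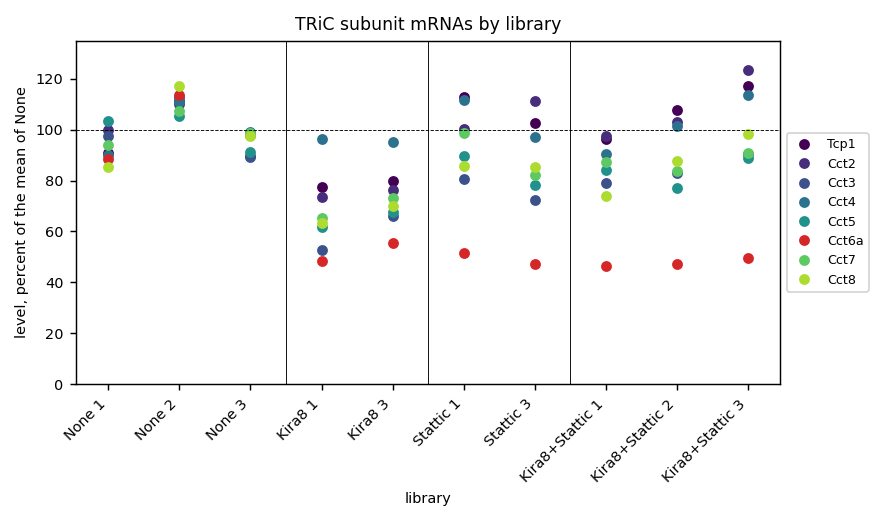
Each point is the level of a TRiC subunit in a library as a percent of its mean in None, with Cct6a in red. In Kira8 most subunits lie below the dashed line at 100%, with Stattic they lie nearer to it, and Cct6a stays low in all 7 libraries with an inhibitor.

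Ubb (ENSMUSG00000019505, chromosome 11, 62551171 to 62553213), which encodes ubiquitin as head-to-tail repeats, rose in both single treatments. It was at 736, 526 and 482 CPM in None, 998 and 1191 CPM in Kira8, 1817 and 2079 CPM in Stattic and 1847, 1976 and 2765 CPM in Kira8+Stattic. None was below Kira8, and Kira8 below both groups with Stattic, without overlap. The rise was 1.88-fold with Kira8 (0.91 ± 0.22, adjusted p = 0.0136; 0.136 without Kira8 replicate 3) and 3.35-fold with Stattic (1.75 ± 0.23, adjusted p = 0.000103). The repeats of Ubb resemble each other closely, and several chaperone genes have processed pseudogenes. How reads that map to such copies were counted was not stated, so levels of these genes are uncertain to that extent.

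Adding Kira8 to Stattic was not followed by a call in any member. Kira8+Stattic against Stattic gave 0 calls among 36 members in edgeR's quasi-likelihood test, 0 at an unadjusted p under 0.05, 0 calls in DESeq2 (1 unadjusted) and 0 in limma voom (0 unadjusted), with 0.0141% of all genes called. In edgeR's test 874 of the 21239 genes had an unadjusted p under 0.05. Apart from Hspb8, the log2 differences ran from -0.13 for Cdc37 to 0.78 for Hspb1, whose standard error was 1.13. That of Dnajb1 was 0.48 ± 0.24 and that of Bag3 0.20 ± 0.29, so differences of this size were not told from the spread of 2 against 3 libraries. A missed threshold does not show that the levels were equal.

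Whether Kira8 acted alike without and with Stattic was asked by the interaction, which subtracts the Kira8 change without Stattic from that with Stattic. It was called for 5 of 36 members, 3 positive and 2 negative, with 8.52% of all genes called. An unadjusted p under 0.05 was found for 15 members, and for 5144 of the 21239 genes tested. Dnajb2 had the most negative value (-1.75 ± 0.23, adjusted p = 0.00215): Kira8 raised it without Stattic, and with Stattic the difference was 0.16 ± 0.17. Hsf2 followed (-1.27 ± 0.32, adjusted p = 0.0315), with 1.58 ± 0.23 without Stattic and 0.31 ± 0.23 with it. Fkbp4 (0.87 ± 0.21, adjusted p = 0.0273), Cct3 (0.89 ± 0.24, adjusted p = 0.0394) and Cct6a (0.90 ± 0.22, adjusted p = 0.0292) were lower with Kira8 alone, by -0.73, -0.75 and -0.94, and with Stattic differed by 0.13, 0.14 and -0.05.

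The Dnajb2 interaction held without any single library of the 10. The other 4 each ended without several libraries, and without Kira8 replicate 1, Kira8 replicate 3, Stattic replicate 3 or Kira8+Stattic replicate 2 a single member remained called. For the strongest Stattic responders the interaction was not called, at -0.49 ± 0.40 for Bag3, -0.12 ± 0.33 for Dnajb1, -0.68 ± 0.27 for Dnajb4 and 0.25 ± 0.42 for Hsp90aa1. Their rise with Stattic in cells given Kira8 was 15.3-fold, 10.9-fold, 8.89-fold and 4.99-fold.

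**Figure D5:**
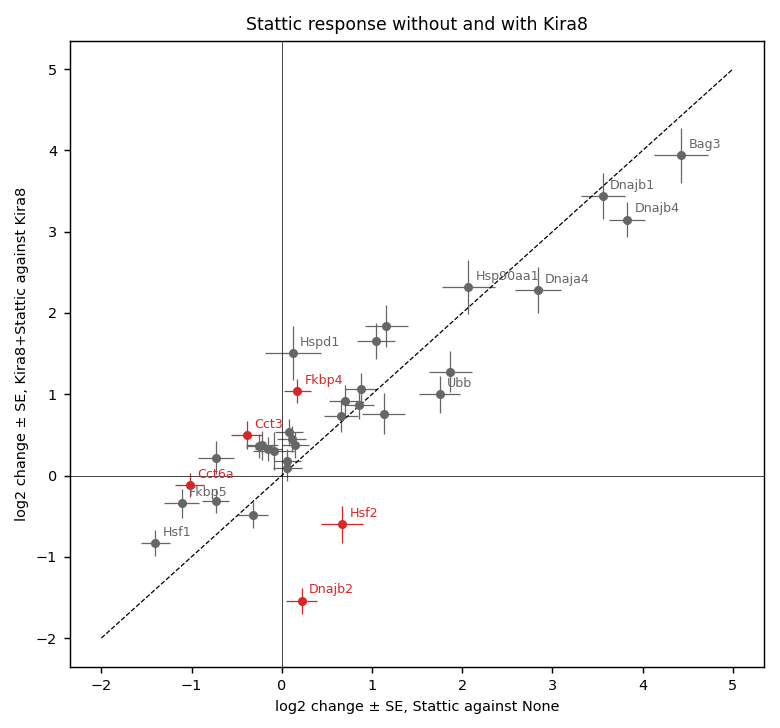
The x axis is the log2 change of Stattic against None and the y axis that of Kira8+Stattic against Kira8, with standard errors, for 34 members (Hspb1, Hspb8 and Cryab left out), and the dashed line marks equal changes. The 5 members with a called interaction are red, Dnajb2 and Hsf2 below the line and Fkbp4, Cct3 and Cct6a above it.

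The wider folding network, given as lists of genes that are not members, had calls in both directions with Stattic, and so had all genes. Of all genes tested, 20.1% were called higher with Stattic and 18.9% lower. In edgeR's test 10148 of the 21239 genes had an unadjusted p under 0.05. Among the lists, 5 of 9 HSP70 family genes were higher and 1 lower. The smallest adjusted p in that list were those of Hspa2 (5.28 ± 0.30, adjusted p = 7.43e-07) and Hsph1 (3.92 ± 0.39, adjusted p = 1.89e-05). The largest changes were those of the near-identical pair Hspa1b (8.67 ± 0.92, adjusted p = 2.77e-05) and Hspa1a (8.58 ± 0.94, adjusted p = 3.34e-05), named after their values were seen. Other J proteins had 0 of 13 higher and 7 lower in edgeR's test, 8 of the 13 having an unadjusted p under 0.05, with Dnaja3 of mitochondria at -2.26 ± 0.22 and the ribosome-bound Dnajc2 at -1.07 ± 0.17. Other HSP90 cochaperones had 3 of 14 higher, among them Tomm34 (0.95 ± 0.14), and 7 lower, among them the phosphatase Ppp5c (-1.46 ± 0.19). Prefoldin, which hands actin and tubulin to TRiC, had 1 of 6 higher (Pfdn5, 1.01 ± 0.17) and 2 lower, Pfdn2 among them (-0.97 ± 0.23). Other BAG genes had 0 of 4 higher and 2 lower, Bag2 (-1.52 ± 0.26) and Bag5 (-1.16 ± 0.20). Of 6 genes of mitochondrial proteostasis 3 were lower, including Grpel2 (-2.18 ± 0.18) and Trap1 (-1.33 ± 0.17), and none was higher. Of 3 tested other small heat shock proteins 1 was higher (Hspb6, 1.10 ± 0.36), and neither of 2 tested other HSF genes was called.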

How the data were processed

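Messenger RNA of 12 mouse Th17 libraries was measured by sequencing. The authors deposited a single table of raw counts per gene, whole numbers that were not normalized, for 55401 Ensembl genes. RNA was isolated with Trizol, per the labels' protocols, and mm10 is the build in the submitters' processing notes. For the aligner, the counter, multiply mapping reads and strand the entry is: not given in the sources used here. Groups and replicate numbers came from the titles. Symbols were found for 55141 genes through the Ensembl identifier, and positions came from the GENCODE annotation of mm10.

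From the counts, genes were kept by filterByExpr, scaled by TMM and tested with edgeR 4.0.16 (quasi-likelihood test, R 4.3.3), a single fit of 10 libraries with a coefficient per group and Benjamini-Hochberg adjustment over 21239 genes. The 6 comparisons were each inhibitor and both against None, both against each inhibitor, and the interaction. The standard error is the log2 change divided by the root of F. Kira8 replicate 2 and Stattic replicate 2 were left out for their mitochondrial share, their counts in olfactory receptor genes and their rank correlation with the others, which leaves 2 libraries in each of these groups. Common dispersion was 0.1432 without them. Between replicates of a group the counts differed by more than sampling noise, so each library counted once. Alternatives were all 12 libraries, these in limma voom with quality weights, DESeq2 1.42.0, limma 3.58.1 voom, RLE factors, library size alone, no filter, more than 1 CPM in 2 libraries, the replicate block, a fit of the compared groups alone, and omission of each of the 10 libraries in turn. The test was tried on simulated counts first. The 3 members of each role class with the lowest adjusted p for Stattic against None (fewer in small classes), and those with a called interaction, are given library by library, and up to 2 genes per further list. Members, lists and the choice of libraries were made with earlier results of these data known, so the rise of heat shock genes with Stattic, already seen then, is no independent support. The result of 1 further list is not reported here.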

Additional observations from a re-analysis of the deposited data

Results flagged for a closer look

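In 5 members the Kira8 change differed between cells with and without Stattic by the interaction test of edgeR over the 10 libraries. The difference, as the log2 Kira8 change with Stattic minus that without, was -1.27 for Hsf2 and -1.75 for Dnajb2, both of which were highest, among the 10, in the 2 Kira8 libraries. It was 0.87 for Fkbp4, 0.89 for Cct3 and 0.90 for Cct6a, each lower with Kira8 alone than in None. The interaction of Dnajb2 was called without any single library, and the other 4 were not.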

How the results depend on the processing

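No member call turned its direction under any alternative, among 84 calls over the 6 comparisons. With all 12 libraries in edgeR the members called were 0 for Kira8 against None, 1 for Stattic against None, 1 for both against None, 0 for both against Kira8 and 0 for the interaction, and 2 of the 84 calls remained, both of Dnajb4. For the interaction, voom with quality weights on 12 libraries gave 3 and DESeq2 gave 9, against 5. Apart from the omission of single libraries, counts elsewhere were within 1.5 times the reported ones. Leaving out each of the 10 libraries gave 4 to 16 members for Kira8 against None, 16 to 21 for Stattic against None, 21 for both against None, 13 to 24 for both against Kira8, 0 for both against Stattic and 1 to 7 for the interaction. Where this left a group of 1 library, that library was assumed to vary like the other groups. Leaving out either Kira8 library also lowered the calls among all genes for Kira8 against None and for both against Kira8. Whether replicate numbers pair the samples was not settled. Deviations from the group means correlated by 0.02 to 0.22 between libraries of the same number, below 0.1 in most pairs. Between libraries of different numbers they correlated by -0.15 to 0.07, and None replicate 3 did not correlate best with its own number. In a group of 2 libraries the deviations are mirror images, so this check cannot decide the question. With the replicate number as a block the counts were 17 (9 higher and 8 lower), 20, 21, 23, 0 and 5, and 7 of 84 calls were lost. Depth limits the small heat shock proteins, where 3 counts are 0.0349 to 0.0581 CPM, and groups of 2 libraries limit the Kira8 results.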
